A study of Bos taurus and Bos indicus with 6 samples.

Results

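The classical and accessory genes of bovine MHC class II were followed in circulating white blood cells, leaving aside the DQ genes. The members were chosen by name: BOLA-DRA, BOLA-DRB3, BOLA-DMA, BOLA-DMB, BOLA-DOA, BOLA-DOB, BOLA-DYA, BOLA-DYB, CD74 and CIITA, 10 genes in all. In the annotation used here 7 of these genes carry at least 1 probe set, and together they have 8 of the 24016 probe sets tested (7 of 9155 named genes). No probe set is named BOLA-DOB, CD74 or CIITA in that annotation, so the beta chain of DO, the invariant chain and the class II transactivator were not analysed here.

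RNA came from female cattle, 6 months of age, undergoing heavy challenge with the cattle tick Rhipicephalus microplus. The groups were 3 Brahman animals (annotated as Bos indicus) and 3 Holstein animals (Holstein-Friesian, Bos taurus), with 1 Affymetrix array per animal and no uninfested group among the arrays analysed here. Blood was taken while the animals underwent repeated infestations. Breed therefore cannot be told apart from anything else that differed between these few animals, and a response to ticks cannot be separated from a breed difference present without them. The samples were whole white cell pellets from jugular blood, so fewer cells of a type and less RNA per cell cannot be told apart.

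MHC class II molecules are alpha and beta chain pairs that show peptides from swallowed antigens to CD4 T cells. The invariant chain escorts new pairs to endosomes, where proteases cut it down, DM exchanges its last fragment for a peptide, and DO restrains DM. In blood the genes are read mainly in B cells, monocytes and dendritic cells, under the transactivator CIITA. DR is the main classical class II molecule of cattle together with DQ. DY is a ruminant class II pair.

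None of the 8 class II probe sets was called between the breeds. With limma and Benjamini-Hochberg adjustment over all probe sets, 0 of 8 passed an adjusted p under 0.05, where the share over all probe sets was 0.137%. At an unadjusted p under 0.05 the count was 1 of 8, against 13.6% of all probe sets. That 1 was BOLA-DMB, lower in Brahman, and the share of all probe sets at this level was 6.47% lower and 7.12% higher in Brahman. Brahman had the lower value in 7 of 8 probe sets, against 10699 of 24016 over all probe sets. The median difference was -0.10 on the log2 scale, beside 0.02 over all probe sets. The median was -0.04 without Holstein 1, -0.06 without Brahman 1 and -0.17 after adjustment for the hybridisation spike-in controls, and 5 of the 6 probe sets above the lower quartile were lower. All differences here are Brahman minus Holstein on the log2 scale of RMA values, which are relative hybridisation signals and not transcript numbers.

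**Figure D1:**
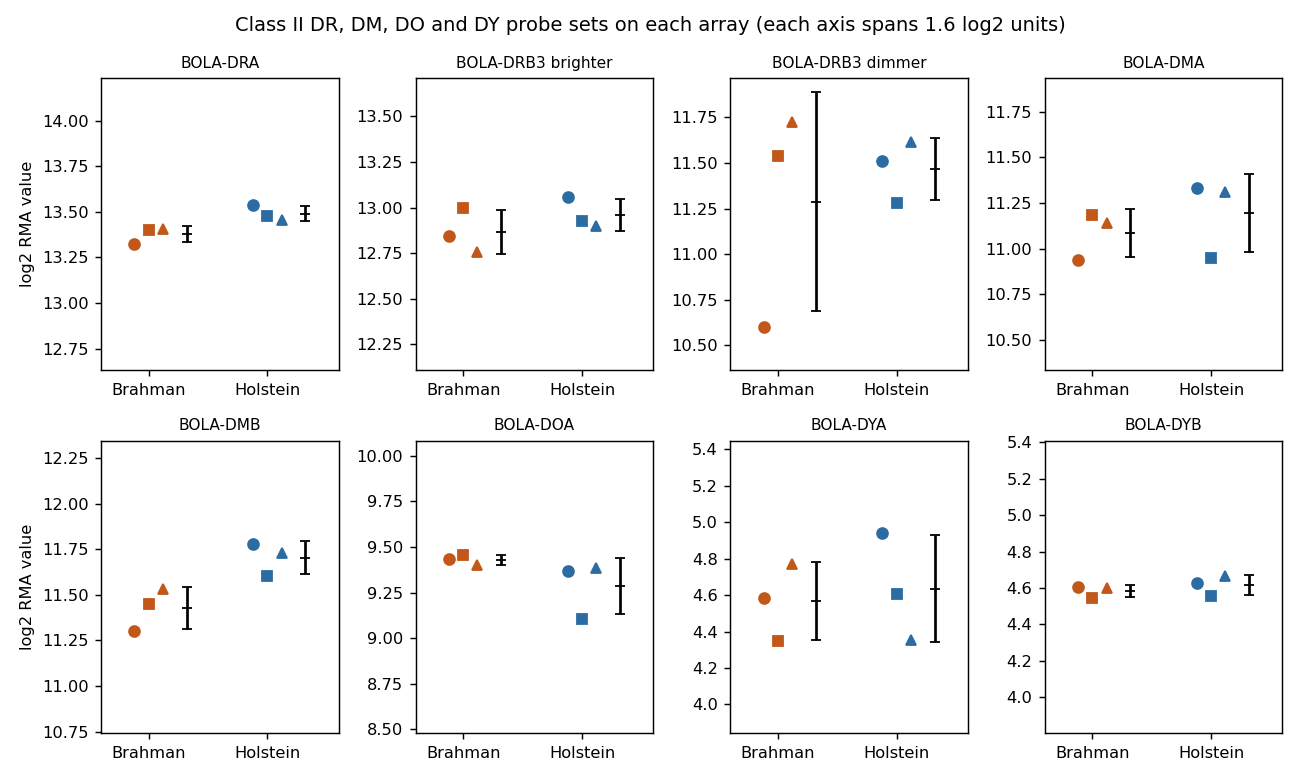
Each panel plots the log2 RMA value of 1 class II probe set on each array, Brahman left and Holstein right. Circles, squares and triangles are animals 1, 2 and 3 of a breed, bars are mean ± SD (n = 3), and every axis spans the same width. BOLA-DRA and BOLA-DMB lie lower on each Brahman array than on any Holstein array, and 1 BOLA-DRB3 probe set has a single low Brahman array at 10.60.

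BOLA-DRA encodes the DR alpha chain, which varies little in sequence between animals. Its probe set read 13.33, 13.40 and 13.40 in Brahman animals 1, 2 and 3, against 13.54, 13.48 and 13.46 in Holstein animals 1, 2 and 3. Each Brahman value was below each Holstein value, but the gap between the breeds was narrow. The means were 13.38 ± 0.04 in Brahman and 13.49 ± 0.04 in Holstein (SD, n = 3 each). The difference was -0.11 (SE 0.08, 95% interval -0.31 to 0.08, limma adjusted p = 0.596), so the interval runs from 0.808-fold to 1.06-fold of the Holstein level. The SE exceeds what the spread of this probe set alone would give, because limma moderates small variances towards those of all probe sets. The signal lay near the upper end of the arrays' scale, where the highest probe set mean was 14.40, and compression there was not tested.

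BOLA-DRB3 encodes the main expressed DR beta chain of cattle and is highly polymorphic. The brighter of its probe sets carries the suffix that Affymetrix gives to probes shared by more than 1 transcript, so related DRB sequences may contribute to it. Whether its probes match Brahman and Holstein alleles equally was not tested. It read 12.84, 13.00 and 12.76 in Brahman animals 1, 2 and 3, against 13.06, 12.93 and 12.90 in Holstein. The breeds overlapped, and the difference was -0.09 (SE 0.10, 95% interval -0.33 to 0.14, limma adjusted p = 0.732).

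The dimmer BOLA-DRB3 probe set had 1 array apart from the rest. It read 10.60, 11.54 and 11.73 in Brahman animals 1, 2 and 3, against 11.51, 11.28 and 11.61 in Holstein animals 1, 2 and 3. Brahman 1 was the lowest of the 6, below all Holstein values, while Brahman 3 was the highest. The SD in Brahman was 0.60 for this probe set, against 0.17 in Holstein. The difference was -0.18 (SE 0.28, 95% interval -0.83 to 0.47, limma adjusted p = 0.822), and without Brahman 1 it was 0.16 (adjusted p = 0.752). Only 3.50% of all probe sets had a larger within-breed SD than this one, against 72.1% for the brighter probe set of the same gene. The 2 probe sets therefore gave no common picture of Brahman 1, where the brighter one read 12.84, between the other Brahman animals (13.00 and 12.76).

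The DM pair gave the only member at an unadjusted p under 0.05. BOLA-DMB, the DM beta chain, read 11.30, 11.45 and 11.53 in Brahman animals 1, 2 and 3, against 11.78, 11.60 and 11.73 in Holstein. Each Brahman value was lower than each Holstein value, and the nearest animals were Brahman 3 and Holstein 2. Means were 11.43 ± 0.12 in Brahman and 11.70 ± 0.09 in Holstein (SD, n = 3 each). The difference was -0.28 (SE 0.10, 95% interval -0.51 to -0.04), equal to 0.826-fold of the Holstein level, with an unadjusted p of 0.0277 and a limma adjusted p of 0.308. Over the alternative settings its adjusted p ran from 0.248 to 0.584 and its difference from -0.36 to -0.21, lower in Brahman throughout.

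BOLA-DMA, the DM alpha chain, read 10.93, 11.18 and 11.14 in Brahman animals 1, 2 and 3, against 11.33, 10.95 and 11.31 in Holstein animals 1, 2 and 3. The breeds overlapped, since Holstein 2 read almost the same as Brahman 1. The difference was -0.11 (SE 0.13, 95% interval -0.42 to 0.20, limma adjusted p = 0.771). The intervals of the DM chains overlap, so a different breed effect on the alpha and the beta chain is not shown by these fits.

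BOLA-DOA, the alpha chain of DO, was the only member with a higher value in Brahman. It read 9.44, 9.45 and 9.40 in Brahman animals 1, 2 and 3, against 9.37, 9.11 and 9.38 in Holstein. The breeds did not overlap, although Brahman 3 and Holstein 3 were nearly level, and Holstein 2 stood below the rest. The difference was 0.14 (SE 0.10, 95% interval -0.10 to 0.39, limma adjusted p = 0.586). It was 0.05 without Holstein 2, and -0.11 once the fit included the mean of the hybridisation spike-in controls. In all, the breeds did not overlap in 3 of 8 class II probe sets (BOLA-DRA, BOLA-DMB and BOLA-DOA), against 20.0% of all probe sets. By direction, 2 were lower and 1 higher in Brahman, against 8.37% and 11.7% of all probe sets.

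BOLA-DYA and BOLA-DYB, the alpha and beta chains of DY, gave low signal on every array. BOLA-DYA read 4.59, 4.35 and 4.77 in Brahman animals 1, 2 and 3, against 4.94, 4.61 and 4.36 in Holstein, and BOLA-DYB lay between 4.54 and 4.67 on all arrays. Both genes lay under the 5.08 that marks the lower quartile of probe set means, and without detection calls a signal above background cannot be shown, so the arrays gave no usable breed comparison for DY. The differences were -0.07 for BOLA-DYA (adjusted p = 0.908) and -0.03 for BOLA-DYB (adjusted p = 0.901) in limma.

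**Figure D2:**
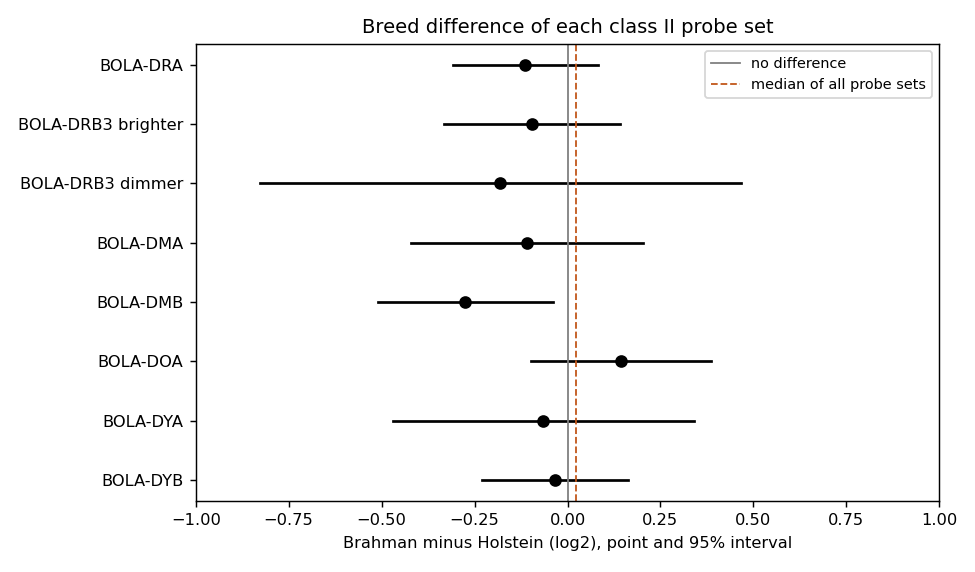
Points are the differences, Brahman minus Holstein in log2 units, of the 8 class II probe sets, and lines are 95% intervals from limma. The grey line marks no difference and the dashed line the median of all probe sets at 0.02. The interval of BOLA-DMB (-0.51 to -0.04) leaves out 0, the other 7 hold it, and the widest belongs to the dimmer BOLA-DRB3 probe set (-0.83 to 0.47).

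Because all members were measured on the same arrays, their ratios were also compared within each array, for the 6 probe sets above the lower quartile. Ratios were set to a Holstein mean of 0, so they show unequal change and not which gene changed. The breeds did not overlap in 4 of the 15 pairs, against 21.8% of all pairs of probe sets above that quartile, a similar share. The 4 were picked out after the values were seen, and 3 of them contain BOLA-DOA. The pair with the largest difference was BOLA-DMB over BOLA-DOA, a DM chain over a chain of its inhibitor DO. Its log2 ratio was -0.55, -0.42 and -0.29 in Brahman animals 1, 2 and 3, against 0.00, 0.08 and -0.07 in Holstein animals 1, 2 and 3. Every Brahman animal therefore had a lower DMB to DOA ratio than every Holstein animal, by -0.42 on average. The two-sided exact permutation p was 0.1, the smallest that this test can give with 3 against 3 arrays. Any pair without overlap has this p, so it repeats the choice of the pair and adds no support.

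The remaining pairs without overlap each contained either BOLA-DMB or BOLA-DOA. BOLA-DMA over BOLA-DOA differed by -0.25 and BOLA-DRA over BOLA-DOA by -0.26, lower in Brahman, and BOLA-DMA over BOLA-DMB by 0.17. In the last of these the nearest animals were 0.12 in Brahman 3 and 0.09 in Holstein 3. BOLA-DRA against the brighter BOLA-DRB3 probe set, the chains of the DR molecule, differed by -0.02 and overlapped fully.

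**Figure D3:**
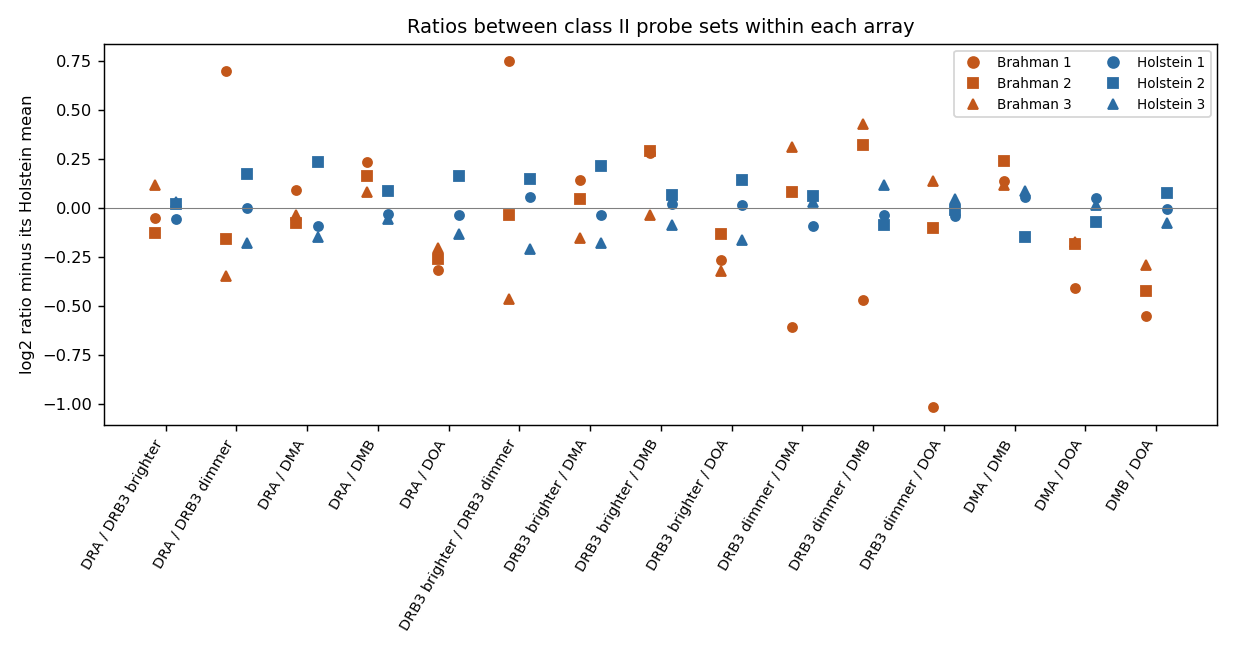
Each column is 1 pair of class II probe sets, and points are the log2 ratio within each array after subtracting its Holstein mean, Brahman left and Holstein right of each tick. The brighter and dimmer probe sets of BOLA-DRB3 are shown apart. For DMB over DOA the Brahman animals lie between -0.55 and -0.29, below the Holstein animals at -0.07 to 0.08.

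The spread of the class II members among animals was like that of most probe sets, and smaller than that of the DQ genes. Over all 6 arrays the 6 member probe sets above the lower quartile had ranges of 0.21 to 1.12 log2 units, with 5 of 6 below 1, against 91.9% of all probe sets. Their median range was 0.37, beside 0.43 over all probe sets. BOLA-DYA and BOLA-DYB are left out of these counts because of their low signal. For the 12 DQ probe sets it was 0.75 to 8.58, with 10 of 12 above 2, a range that 0.870% of all probe sets exceed. The within-breed SD was 0.04 to 0.44 for the members and 0.31 to 4.30 for DQ, and this contrast is given as a description without a test. DQ probe sets were not called either (smallest adjusted p = 0.540), and their high and low arrays did not follow breed in one way. A BOLA-DQB1 probe set had both kinds of array in each breed, and read 11.88, 13.01 and 6.20 in Brahman animals 1, 2 and 3, against 4.87, 12.77 and 13.45 in Holstein. The BOLA-DQA5 probe set was high in Brahman 3 alone, at 9.87, with 5.55 and 5.51 in the other Brahman animals, against 5.80, 5.84 and 5.20 in Holstein. By brightest probe sets, the DQ genes with the smallest p in limma were BOLA-DQB (1.02, adjusted p = 0.540), BOLA-DQA1 (-1.19, 0.587) and BOLA-DQA5 (1.36, 0.625).

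**Figure D4:**
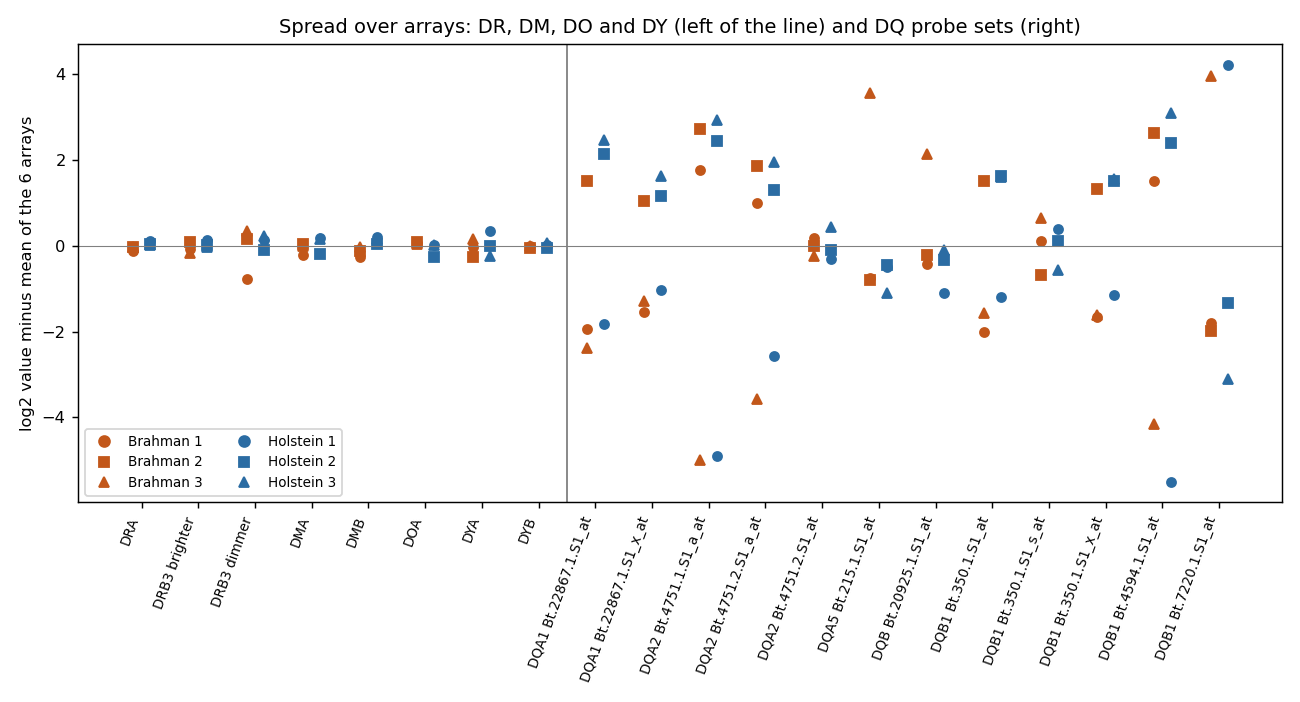
Points are log2 values on each array minus the mean of that probe set over the 6 arrays, with Brahman left and Holstein right of each tick. Symbols mark the animals. The DR, DM, DO and DY probe sets left of the line have ranges of 0.12 to 1.12, and the DQ probe sets right of it ranges of 0.75 to 8.58.

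The members also differ in their place in the genome. In the RefSeq annotation of the ARS-UCD2.0 assembly, used here only for gene order, all the measured members lie on chromosome 23 in 2 separate stretches with 240 protein-coding genes between them. BOLA-DRB3 and BOLA-DRA sit with the DQ genes in one, and BOLA-DYA, BOLA-DYB, BOLA-DMB, BOLA-DMA and BOLA-DOA in the other. Inside the second stretch lie genes of class I peptide supply, namely the peptide transporter genes TAP1 and TAP2 and the immunoproteasome genes PSMB8 and PSMB9, between BOLA-DYB and BOLA-DMB. These were not called: PSMB9 differed by -0.31 (adjusted p = 0.487), PSMB8 by -0.30 (0.542), TAP1 by -0.18 (0.798) and TAP2 by -0.06 (0.936). BRD2, a chromatin reader gene between BOLA-DMA and BOLA-DOA, differed by 0.10 (limma adjusted p = 0.733). Neighbouring genes were taken up after the values were seen, and the within-breed SD was 0.26 to 0.40 for the class I supply genes, larger than the 0.10 of BOLA-DMB.

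For likeness, profiles over the 6 arrays were compared after subtracting each probe set's mean. The genes closest to BOLA-DMB were ELP5, SMAGP and NT5C, with root mean square differences of 0.03, 0.04 and 0.05 log2 units. Those closest to BOLA-DRA were PRKAB1, VAPA and C23H6orf141 at 0.01, 0.02 and 0.02. BOLA-DRA varies so little that 1874 of 13284 named probe sets lay within 0.1 of its profile, against 165 for BOLA-DMB.

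The genes around the class II molecule were described from lists, each gene by its brightest probe set. Over all genes taken this way 15.8% reached an unadjusted p under 0.05 (9.62% lower and 6.23% higher in Brahman), 0.164% were called, and the median difference was -0.01. Among transcription factors acting on class II promoters or on CIITA, 1 of 10 measured genes reached this level, and the median difference was -0.07 (-0.04 without Brahman 3 or Holstein 1). It was IRF8, a factor of B and myeloid cells, which read 9.61, 9.73 and 9.45 in Brahman animals 1, 2 and 3, against 9.92, 9.85 and 9.92 in Holstein. IRF8 differed by -0.30 (SE 0.10, limma adjusted p = 0.274), RFX5 of the X box complex by -0.24 (adjusted p = 0.408), and NFYA of the Y box complex by -0.18 (adjusted p = 0.593). RFXANK, the RFX5 partner, differed by -0.05. A second IRF8 probe set differed by -0.10, and a second RFX5 probe set by 0.01.

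Genes of endosomal antigen processing had mostly lower values in Brahman, 12 of 16, against 4732 of 9155 over all genes by their brightest probe set. The list median was -0.24 (-0.14 without Holstein 1). At an unadjusted p under 0.05 there were 5 lower and 2 higher, and 0 of 16 were called. The lower ones were the cathepsin genes CTSC (-0.93, adjusted p = 0.160), CTSF (-0.44, 0.261), CTSB (-0.53, 0.291), CTSH (-0.51, 0.296) and CTSS (-0.25, 0.346) in limma. Cathepsin S cuts the invariant chain in class II loading, and CTSS read 12.05, 12.12 and 12.20 in Brahman animals 1, 2 and 3, against 12.49, 12.43 and 12.23 in Holstein. The higher ones were CST3 (0.49), which encodes the cathepsin inhibitor cystatin C, and CTSD (0.35). Probe sets of a gene did not always go together: other CST3 probe sets differed by 0.01 and -0.15. Of 6 CTSB probe sets, 3 differed by -0.53, -0.50 and -0.36, and the others by 0.00, 0.17 and 0.25, the last of these higher at an unadjusted limma p of 0.0341. The 5 lower genes became 2 without Brahman 1, 3 without Brahman 3 and 9 without Holstein 3, where CTSC was called (adjusted p = 0.0464), and 3 after adjustment for the spike-in mean. The 2 higher became 1 without Brahman 1, and 0 without Brahman 3, Holstein 2 or Holstein 3 and after that adjustment.

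IFI30, the thiol reductase that opens disulphide bonds of antigens, differed by -0.21 (adjusted p = 0.538), and the asparaginyl endopeptidase gene LGMN by -0.19 (adjusted p = 0.588). The list of genes for surface turnover and partners of class II and the invariant chain had 6 measured genes and a median of -0.12, without a stable sign. It was 0.02 without Holstein 1, 0.06 after the spike-in adjustment and -0.29 without Holstein 3. CD44, which forms a receptor with the invariant chain, differed by 0.43 (adjusted p = 0.249), its ligand MIF by -0.38 (adjusted p = 0.287) and the tetraspanin gene CD9 by -0.49 (adjusted p = 0.535). MARCHF8, a ubiquitin ligase that takes class II off the surface, differed by 0.10 (adjusted p = 0.790) in limma.

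In the list of class II recognition and costimulation, several T cell genes had higher values in Brahman and CD86 of presenting cells a lower one. Of 9 measured genes 4 were higher and 1 lower at an unadjusted p under 0.05, and 0 were called. The higher ones were CD40LG (0.74, adjusted p = 0.119), CTLA4 (0.43, 0.138), CD28 (0.56, 0.142) and CD4 (0.50, 0.256), all of T cells. CD4, the coreceptor that binds class II, read 6.55, 6.53 and 6.71 in Brahman animals 1, 2 and 3, against 6.12, 5.80 and 6.38 in Holstein. The lower one was CD86 (-0.66, adjusted p = 0.274), a ligand of CD28 on presenting cells, which was called without Holstein 3 (-0.94, adjusted p = 0.0464) and did not reach an unadjusted p under 0.05 without Holstein 1 or Holstein 2. CD40 and CD80, also of presenting cells, differed by -0.31 and -0.07, and the T cell genes LAG3 and ICOS by 0.04 and -0.0048. The list median was 0.04, and without single arrays it ran from -0.10 (without Holstein 3) to 0.23 (without Brahman 3). It was 0.21 after the spike-in adjustment. A second CD4 probe set differed by 0.04 and a second CD80 probe set by 0.20, at low mean levels of 5.35 and 5.41. A second ICOS probe set differed by 0.41 (unadjusted p = 0.0259 in limma).

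**Figure D5:**
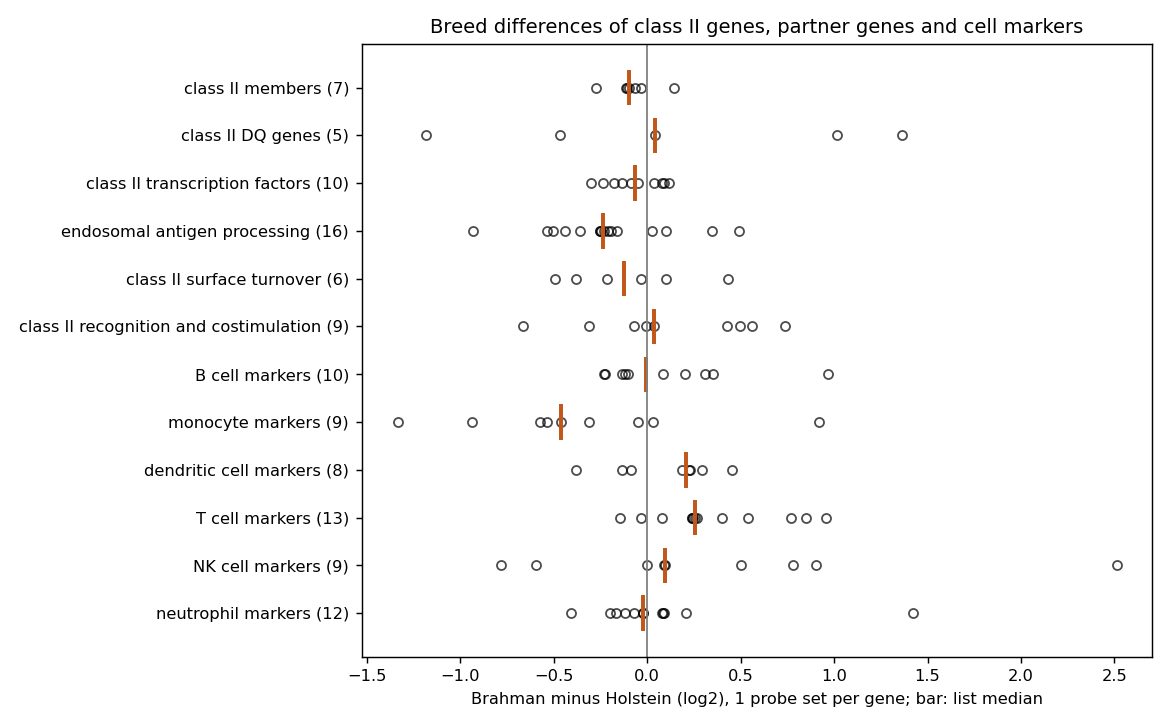
Circles are genes, placed by their difference, Brahman minus Holstein in log2 units, with 1 probe set per gene; bars are list medians and numbers in brackets are genes measured. The 7 class II members lie between -0.28 and 0.14, a span like that of the class II transcription factors (-0.30 to 0.12), and the lists have medians from -0.46 for monocyte markers to 0.26 for T cell markers.

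Markers of the cells that carry class II were set beside the members. Of 10 measured B cell markers 2 were higher at an unadjusted p under 0.05 and 0 were called, with a median of -0.01 (-0.08 to 0.08 without single arrays). The mean level of that list was 9.06 to 9.28 in Brahman and 8.86 to 9.17 in Holstein, overlapping. The abundant B cell genes MS4A1 and CD79A differed by -0.14 (adjusted p = 0.672) and -0.23 (adjusted p = 0.524), while the kinase gene BLK (0.97, adjusted p = 0.106), the complement receptor gene CR2 (0.35, adjusted p = 0.244) and the chemokine receptor gene CXCR5 (0.20, adjusted p = 0.391) had higher values in limma.

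Monocyte markers had a mean level of 8.39 to 8.88 in Brahman, below the 8.90 to 9.27 of Holstein, and a median of -0.46. The nearest arrays were Brahman 2 at 8.88 and Holstein 3 at 8.90. That mean includes the called gene OLR1, which read 7.29 in Brahman 2 and 8.25 in Holstein 3. The narrow gap therefore does not show a shift of the list as a whole. At an unadjusted p under 0.05, 3 of 9 were lower and 1 higher. The scavenger receptor gene OLR1 was called (-1.34, adjusted p = 0.0258), and VCAN (0.92, adjusted p = 0.0719) and CD14 (-0.94, adjusted p = 0.141) were not. Other VCAN probe sets differed by 1.06 and 1.03, and another CD14 probe set by -0.67. With the mean of probe sets per gene, 2 of the 9 markers were called. With 1 array left out OLR1 stayed called only without Holstein 3, and it was not called with the replicate number as a block or after adjustment for the spike-in mean. The median was -0.24 without Brahman 1 and -0.31 without Holstein 1. The dendritic cell list had a mean level of 6.92 to 7.20 in Brahman and 6.94 to 6.97 in Holstein, overlapping, and a median of 0.21 over 8 genes (0.06 without Brahman 3, 0.07 without Holstein 2 and 0.13 without Holstein 3), with TCF4 at -0.38, FCER1A at 0.29 and ITGAE at 0.19, and limma called 0 of them. The part of these cell types in the BOLA-DMB or BOLA-DRA values was not tested.

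In the other leukocyte classes, T cell markers had a median of 0.26, with 8 of 13 higher at an unadjusted p under 0.05 and 0 called by limma (LEF1 0.96, CD3E 0.54 and TCF7 0.85). Their mean level was 10.21 to 10.45 in Brahman, above the 9.91 to 10.07 of Holstein. The 8 became 4 without Brahman 1 or Holstein 3, 5 without Holstein 2, and 2 after adjustment for the spike-in mean. CD2 was among the 8 by its brightest probe set (0.40), but its probe sets disagreed. Another CD2 probe set was lower in Brahman at -0.72 (unadjusted p = 0.00012, adjusted p = 0.0645 in limma), and a further one differed by 0.07. NK cell markers had a mean level of 8.30 to 8.89 in Brahman and 7.99 to 8.35 in Holstein and a median of 0.09, with KLRD1 at 0.90 and PRF1 at -0.60. That median was -0.03 without Brahman 1, 0.41 without Brahman 2 and -0.32 after the spike-in adjustment. FCGR3A differed by -0.78, and by -1.18 without Holstein 3, where it was called (adjusted p = 0.0464). The granzyme gene GZMB was called (2.51, adjusted p = 0.0264), but in the fits without 1 array only without Holstein 2 or Holstein 3, and neither with the block nor after the spike-in adjustment. Neutrophil markers had a mean level of 7.91 to 8.26 in Brahman and 7.91 to 8.05 in Holstein and a median of -0.02 (-0.10 to 0.06 without single arrays), with ALPL at 1.42 (called only without Brahman 3 among the fits without 1 array), S100A12 at -0.41 and ELANE at -0.17.

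Array quality measures also separated the breeds. The mean of 18 hybridisation spike-in probe sets was 9.64 to 9.80 in Brahman and 9.94 to 10.38 in Holstein, without overlap. The actin 3′ minus 5′ difference, a sign of RNA integrity and labelling, was 1.64 to 1.72 in Brahman and 1.73 to 1.98 in Holstein. When the spike-in mean entered the fit, limma called 0 of 8 members and 0 of all probe sets. At an unadjusted p under 0.05 there were 0 members and 2400 probe sets. BOLA-DMB then differed by -0.36 (SE 0.18, adjusted p = 0.558), beside an SE of 0.10 without this term. Because the spike-in mean separates the breeds, that fit cannot tell array quality from breed, and its loss of calls settles neither. Between the breeds, BOLA-DMB and BOLA-DRA were lower on the same arrays as the spike-in mean, and within Brahman the animals ranked alike. Within Holstein they did not. There the spike-in means were 9.94, 10.38 and 10.10 in animals 1, 2 and 3, where BOLA-DMB read 11.78, 11.60 and 11.73. BOLA-DRA was highest in Holstein 1, which had the lowest spike-in mean of that breed. The part of array quality in these values was not tested.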

How the data were processed

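The deposited values are on the log2 scale, 1 for each probe set on each array, and come from RMA per the submitters' processing notes. The RMA version was not given in the sources used here. The method subtracts background, makes array distributions equal and summarises probes, which removes global shifts and compresses low values. No scanner intensities or detection calls were used, so signal over background is judged from the level alone. Of 24128 probe sets 112 array controls were left out. Probe sets were named by the platform annotation, which gives 1 symbol for 13292, several for 86 and none for 10638. All 7 measured member genes matched RefSeq (ARS-UCD2.0). Probe and gene sequences were not used here.

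Breeds were compared with limma 3.58.1 in R 4.3.3 (lmFit, eBayes, breed as the only term, two-sided, Benjamini-Hochberg over 24016 probe sets, called at an adjusted p under 0.05). SE and 95% intervals are moderated. The animals of a breed are the replicates, 3 each, and their number limits the precision. The pipeline was tested on simulated data. The labels do not say that replicate numbers pair animals, so the main fit used no pairing. Deviations from the breed means of same-numbered arrays correlated at 0.11, -0.04 and -0.07, which cannot exclude shared handling of those arrays. No batch is given in the labels.

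Members and lists were chosen with earlier results of these data known. The text names every member and, of each other list, the 3 genes with the smallest p and any that were called. Other genes (such as RFXANK, CTSH, CTSS, CTSD, CD2, CD4, CD86, CD40, CD80, LAG3, ICOS, FCGR3A, IFI30, LGMN, MARCHF8, MS4A1 and CD79A and the neighbours on chromosome 23) were chosen after their values were seen. So was the BOLA-DQB1 probe set whose values are given. The alternatives changed the normalisation (median centring, cyclic loess), dropped dim probe sets, used a trended robust prior or weighted arrays, blocked on the replicate number, took 1 value per gene, adjusted for the spike-in mean, or left out each array in turn.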

Additional observations from a re-analysis of the deposited data

How the results depend on the processing

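No member was called under any of the 16 alternatives. The count of members lower at an unadjusted p under 0.05 was 1, became 0 with cyclic loess and 0 with the spike-in covariate, and ran from 0 to 1 with single arrays left out (0 without Brahman 1, Brahman 2, Holstein 1 or Holstein 3). Differences changed sign in 4 cases, none called: the dimmer BOLA-DRB3 probe set was 0.16 without Brahman 1 (-0.40 to 0.16 over the fits without 1 array), BOLA-DOA -0.11 with the spike-in covariate, and BOLA-DYA 0.05 without Brahman 2 and 0.088 without Holstein 1 (-0.20 to 0.088). With the replicate block BOLA-DMB differed by -0.28 (adjusted p = 0.352), and the block changed no member's call. The count called over all probe sets, 33, was 10 with the block, 0 with the spike-in covariate, 15 with the brightest and 13 with the mean of probe sets per gene (fewer features tested), and 5 to 55 without single arrays. Of the list medians 13 moved by more than the spread between animals and 163 did not. With 3 arrays per breed and no detection calls, differences smaller than the distance from an estimate to its interval ends could not be resolved. Nor could any difference for DY.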
